A study of Mus musculus with 6 samples.

Results

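A set of 9 Polycomb genes was compared between Zfp145 knockout (Null) and wild-type (WT) spermatogonia, taken as the 15 probe sets whose single annotated symbol was Ezh1, Ezh2, Eed, Suz12, Ring1, Rnf2, Bmi1, Cbx2 or Phc1. These are 9 of the 15964 genes that the chips name by 1 symbol. Of the 15 probe sets, 14 lay on the U74Av2 chip, 1 on U74Bv2 and 0 on U74Cv2. The RNA of both genotypes was labelled as coming from spermatogonia, which are the dividing germ cells that feed sperm production, in mice 1 week old on a mixed 129sv and C57Bl/6 background. The Null mice carried the knockout of Zfp145, a zinc finger repressor now named Zbtb16 and known as PLZF. The labels do not name the allele, how the cells were isolated or how many animals contributed. Each genotype had 1 array of each chip, 6 arrays in all, so the differences below could not be checked on replicates or given a p-value.

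Polycomb proteins keep genes silent through histone marks and work in a pair of complexes. Polycomb repressive complex 2 (PRC2) methylates lysine 27 of histone H3, with Ezh1 or Ezh2 as the enzyme and Eed and Suz12 as the subunits it needs. Polycomb repressive complex 1 (PRC1) ubiquitinates histone H2A through the RING-type ligases Ring1 and Rnf2. A PCGF partner such as Bmi1 joins the ligase, a CBX protein such as Cbx2 reads the H3 mark, and a PHC protein such as Phc1 links complexes to each other. PLZF has been described as a partner of Bmi1 at Hox genes, and Bmi1 is known for keeping stem cells dividing by silencing Cdkn2a.

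The targeted gene was read first. On U74Av2 a probe set of Zbtb16 gave 158.1 in Null and 770.2 in WT, a log2 ratio of Null over WT of -2.29. On U74Cv2 another gave 510.8 in Null and 1156.8 in WT, a ratio of -1.20. A further one on U74Av2 read 16.7 in Null and 50.6 in WT, below the floor of 98.3 under which intensities were not compared. Whether these probe sets lie in the deleted part is not given in the sources used here.

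No Polycomb subunit differed 2-fold. At 1.5-fold, 2 of the 9 differed, Cbx2 upward and Ring1 downward in the Null array. Of the 7822 probe sets of U74Av2 measured, meaning above the floor on 1 array or both, 0.908% differed by at least 2-fold and 7.34% by at least 1.5-fold, 3.29% upward and 4.05% downward. The 9 genes, each by the probe set that ranked highest in level on its chip, were all represented on U74Av2 and all above the floor on both arrays. Their ratios ran from -0.90 to 0.61 with a median of 0.11, beside a median of -0.01 over all measured probe sets of the chip. Of the 9, 6 had a ratio above 0, against 48.1% of all measured probe sets.

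**Figure D1:**
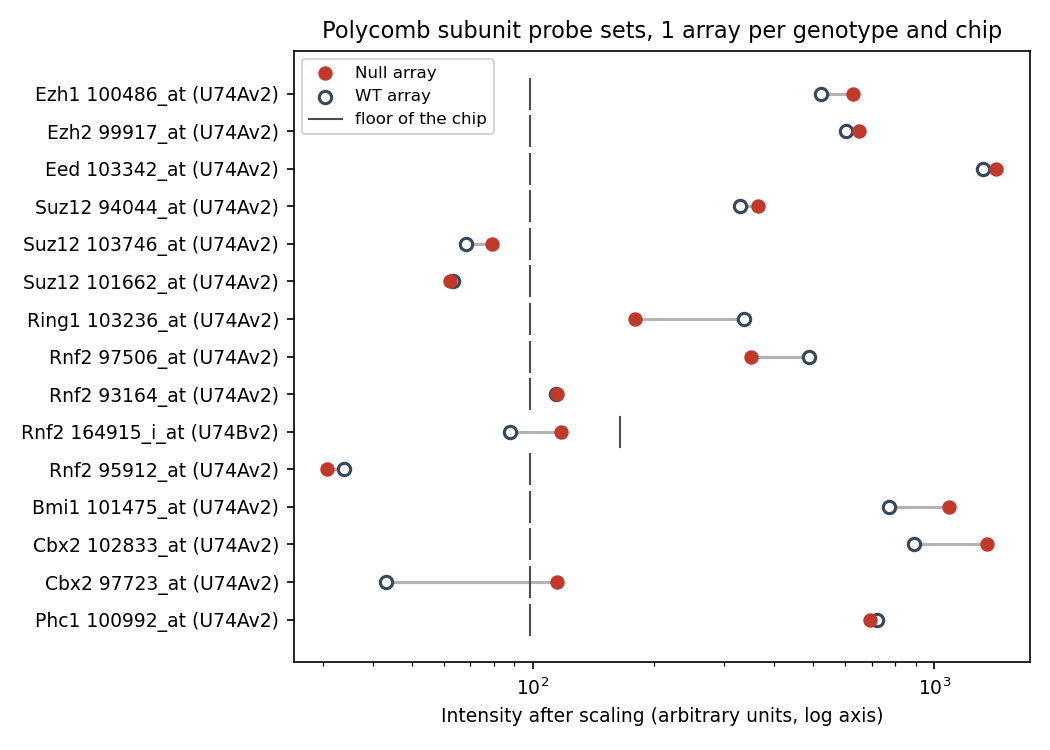
Scaled intensity of the 15 Polycomb probe sets on a log axis, with the Null array as filled and the WT array as open points and the floor of the chip as a vertical stroke. Cbx2 and Bmi1 lie to the right in Null, Ring1 and 1 probe set of Rnf2 to the left, and 4 probe sets lie below the floor on both arrays.

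Promoters of 8 of the 9 genes, all but Cbx2, came from a RefSeq table of the mouse build GRCm38.p6. Of these 8, the gene with the highest ratio, Bmi1, and the pair with the lowest, Ring1 and Rnf2, are shown for the kind of start site they have. The 250 bases before the start are given 5′ to 3′ on the gene's strand, with each CG dinucleotide in capitals.
Bmi1, chr2:18676768-18677017, plus strand: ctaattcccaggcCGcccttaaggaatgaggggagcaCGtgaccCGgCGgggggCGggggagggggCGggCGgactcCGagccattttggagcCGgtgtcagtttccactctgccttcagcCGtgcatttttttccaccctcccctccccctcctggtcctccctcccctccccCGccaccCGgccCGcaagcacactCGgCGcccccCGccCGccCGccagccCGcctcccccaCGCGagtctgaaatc
Ring1, chr17:34024681-34024930, minus strand: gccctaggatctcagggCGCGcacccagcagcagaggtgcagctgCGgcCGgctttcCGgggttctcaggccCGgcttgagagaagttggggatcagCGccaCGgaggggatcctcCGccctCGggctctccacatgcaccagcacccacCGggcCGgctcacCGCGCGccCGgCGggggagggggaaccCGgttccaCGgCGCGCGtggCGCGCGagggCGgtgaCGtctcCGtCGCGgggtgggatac
Rnf2, chr1:151500992-151501241, minus strand: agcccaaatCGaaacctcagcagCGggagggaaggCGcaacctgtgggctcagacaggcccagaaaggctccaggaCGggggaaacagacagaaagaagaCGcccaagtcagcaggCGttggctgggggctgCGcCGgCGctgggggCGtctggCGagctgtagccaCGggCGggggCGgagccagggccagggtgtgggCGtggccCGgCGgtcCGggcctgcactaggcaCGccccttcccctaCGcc
All 3 are rich in CG, with 21 dinucleotides for Bmi1, 30 for Ring1 and 20 for Rnf2, against a median of 6 over the 32851 promoters of the table. Over the 8 genes the count ran from 8 for Phc1 to 37 for Suz12, with a median of 20.5. At least 8 were held by 43% of all promoters and at least 30 by 5.94%. The lower Ring1 and the higher Bmi1 thus share a CG-rich start. Searched on both strands, the E2F motif, spelled TTTCGCGC, TTTGGCGC, TTTCCCGC or TTTGCCGC, occurred before 1 of the 8 genes, Suz12, and in 1.86% of all promoters. The motif CCAAT occurred before Ezh2 and Suz12 and in 33.8% of all promoters, and TATAAA before 0 of the 8 and in 12.4% of all.

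The PRC2 subunits all read slightly higher in the Null array, none beyond the spread between probe sets of a gene. That spread is the scaled median absolute difference between the ratios of probe sets that share a gene and a chip, taken per probe set (over √2). With the probe sets above the floor on both U74Av2 arrays cut into 3 equal groups by level, it was 0.35 in the low, 0.27 in the middle and 0.16 in the high group. It compares probe sets on the same 2 arrays, so it does not cover the spread between arrays, RNA samples or animals. Ezh1, the methyltransferase more typical of resting cells, read 631.1 in Null and 521.4 in WT, a log2 ratio of 0.27. Ezh2, the methyltransferase of dividing cells, read 652.9 in Null and 602.3 in WT, a ratio of 0.11. The ratios of these 2 paralogs differed by 0.16, less than the combined spread of 0.39.

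Eed, the subunit that binds the methylated histone tail, read 1436.2 in Null and 1324.7 in WT, a ratio of 0.11. Suz12, the scaffold of PRC2, read 365.7 in Null and 327.9 in WT, a ratio of 0.15. The other 2 Suz12 probe sets read 79.7 and 62.5 in Null and 68.1 and 63.3 in WT, all below the floor, and give no ratio. The histone-binding proteins Rbbp4 and Rbbp7, which PRC2 shares with other chromatin complexes, stood at 0.10 and 0.09. All 6 genes of the PRC2 core thus lay between 0.09 and 0.27, each within the spread at its level.

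Of the ligases of PRC1, Ring1 and 1 probe set of Rnf2 read lower in the Null array. Ring1 read 180.9 in Null and 336.3 in WT, a log2 ratio of -0.90, or 1.87-fold lower. That is 2.58 times the spread of 0.35 at its level. In this low-level group, 7.12% of the U74Av2 probe sets were at least 1.5-fold lower. Ring1 has no other probe set of its own here, and with the floor raised to the 60th percentile of the chip, at 296.2, its Null value falls under the floor and the ratio becomes a bound of -0.18.

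Rnf2, the paralog of Ring1 and the main H2A ligase of mouse embryonic cells, read 351.4 in Null and 486.6 in WT in its brightest probe set, a ratio of -0.48. That is 1.75 times the spread of 0.27. A second Rnf2 probe set, just above the floor, read 115.8 in Null and 114.5 in WT, a ratio of 0.01, and so did not show the difference. The remaining 2 lay below the floor, at 31.0 in Null and 33.9 in WT on U74Av2 and at 118.3 in Null and 88.0 in WT on U74Bv2. The ratios of Rnf2 and Ring1 differed by 0.42, within the combined spread of 0.44.

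The PCGF and CBX members went the other way. Bmi1 read 1097.9 in Null and 769.7 in WT, a log2 ratio of 0.50, or 1.42-fold higher. That is 3.11 times the spread of 0.16 at this high level, and it rests on 1 probe set. Its level lies just above the lower edge of the high group, at 873.4, and the spread below that edge was 0.27, so the multiple depends on the grouping. Cbx2, whose loss in mice disturbs testis formation, read 1364.5 in Null and 888.4 in WT, a ratio of 0.61, or 1.53-fold higher. That is 3.77 times the spread, and 1.1% of the probe sets in that high-level group were at least 1.5-fold higher. A dim second Cbx2 probe set read 115.9 in Null and 43.1 in WT. Its WT value was under the floor, so it was at least 1.17-fold higher in Null, in the same direction. Averaged over both probe sets, with the dim one at its bound, Cbx2 no longer reached 1.5-fold.

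Phc1, the polyhomeotic subunit, read 695.5 in Null and 719.1 in WT, a ratio of -0.06, a fraction of the spread of 0.27. The 9 subunits thus lay on both sides of 0. Bmi1 stood 1.41 above Ring1 in log2 ratio and Cbx2 stood 1.51 above it, each against a combined spread of 0.39. Bmi1 stood 0.98 above Rnf2, against 0.32. The combined spreads for Bmi1 use the high group, near whose lower edge it lies. These pairs were chosen after the values were seen, and all values come from the same 2 arrays.

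**Figure D2:**
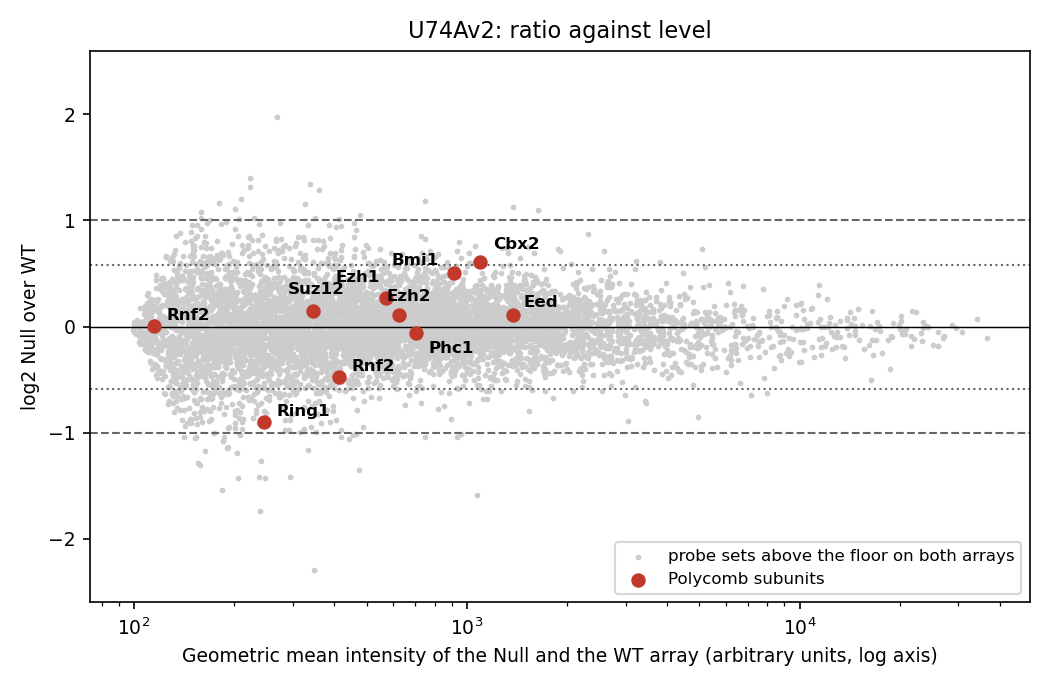
Log2 ratio of Null over WT against the geometric mean intensity of both arrays on U74Av2, on a log axis, with probe sets above the floor on both arrays in grey and Polycomb probe sets in red. Dotted lines mark 1.5-fold and dashed lines 2-fold. Cbx2 lies above and Ring1 below the dotted lines, and the other labelled points lie between them.

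The rest of the Polycomb genes gave ratios on both sides of 0. Counts and medians of lists are over genes, each by its highest-ranking probe set, so other probe sets of a gene can differ from them. Of 20 further PRC1 genes 15 were on the chips and 14 were measured, with 7 ratios above 0 and 7 below and a median of 0.09. That median turned to -0.09 with U74Av2 alone. Of 9 further PRC2 genes 8 were measured, with 6 above 0 and a median of 0.09. By these probe sets 0 of the 22 differed 2-fold and 1 was at least 1.5-fold higher, against 3.06% and 5.34% of the 12431 measured genes of the 3 chips, of which 48.5% were above 0 and whose median was -0.01.

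That gene was Pcgf6, the PCGF partner of a variant PRC1 that keeps germline genes silent in embryonic cells. It read 1544.3 in Null and 885.3 in WT on U74Bv2, a log2 ratio of 0.80, which is 2.96 times the spread of 0.27 there. Among the other PCGF paralogs of Bmi1, Pcgf1, of the variant complex with Bcor, stood at 0.42 and Pcgf2, the nearest relative of Bmi1, at 0.31. Pcgf3 stood at -0.27 and Pcgf5 at -0.24, but each had other probe sets near 0, at 0.10 and -0.03 for Pcgf3 and at 0.03 and 0.14 for Pcgf5. Of the 6 PCGF genes, 4 had a ratio above 0.

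Auts2, a PRC1 partner in neurons, stood at -0.20 on U74Cv2, but a probe set on U74Bv2 read 314.7 in Null and 515.6 in WT, a ratio of -0.72, and 2 others there stood at 0.04 and 0.38. The corepressor Bcor stood at 0.39 on U74Bv2 and at -0.32 in a dim probe set on U74Cv2, so its probe sets did not share a direction. Scmh1, a sex comb protein of PRC1, read 661.5 in Null and 824.6 in WT, a ratio of -0.33. Phc2 and Phc3, the paralogs of Phc1, stood at 0.28 and 0.23. Cbx6 was the only other measured CBX gene and stood at -0.09, unlike Cbx2, with 3 more probe sets between -0.34 and 0.08.

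Among the PRC2 accessory genes, Mtf2, a polycomb-like protein that brings PRC2 to CG-rich DNA, read 1458.7 in Null and 1012.7 in WT, a ratio of 0.52. Other Mtf2 probe sets stood at 0.17 and 0.06. Jarid2, a DNA-binding cofactor of PRC2, stood at 0.41 in its brightest probe set and at 0.10 and -0.10 in others. Phf1 stood at 0.10 and Aebp2 at 0.01. Ezhip, an inhibitor of PRC2 with high expression in gonads, stood at -0.06, and Epop, an elongin-binding partner, at -0.25. The larger ratios of Mtf2 and Jarid2 were thus not shared by their other probe sets.

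**Figure D3:**
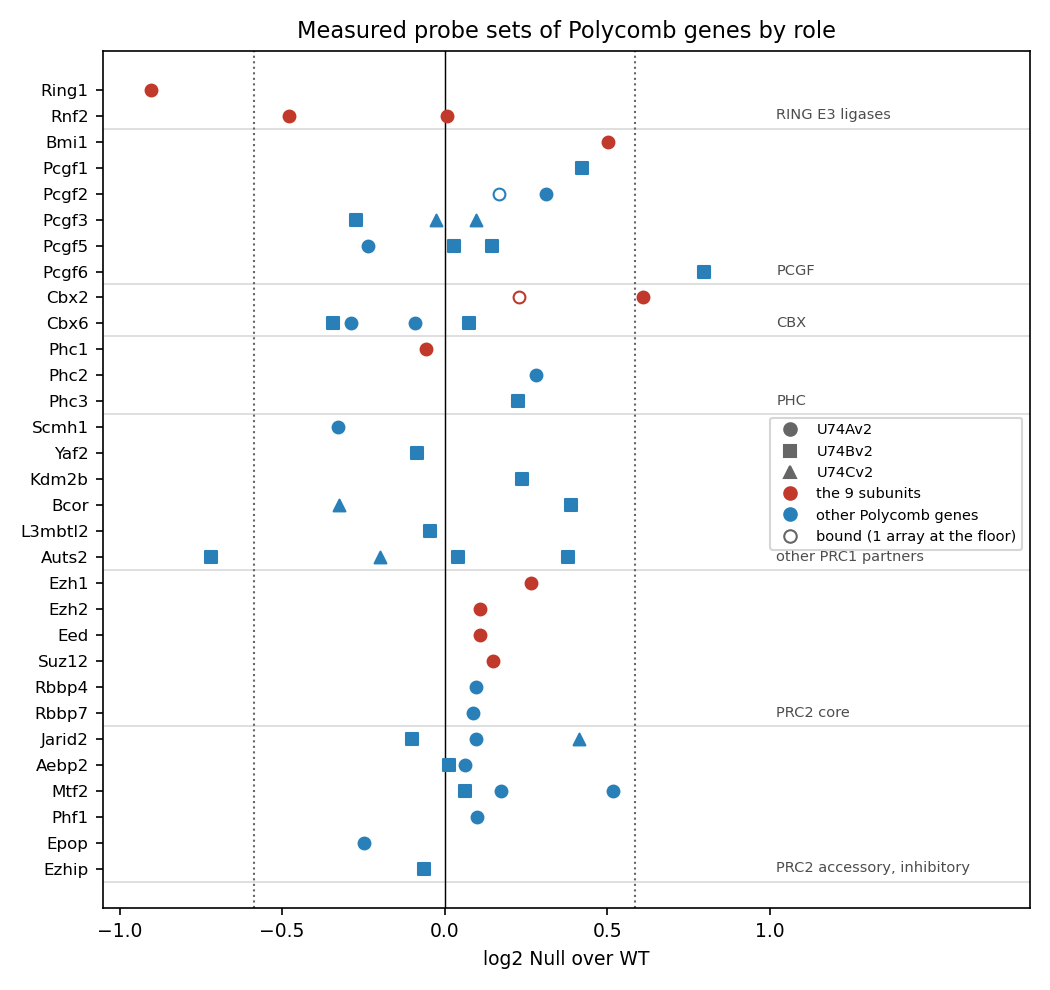
Log2 ratio of Null over WT for each measured probe set of Polycomb genes, grouped by role, with the marker shape giving the chip, red the 9 subunits, blue other Polycomb genes and open points bounds. Dotted lines mark 1.5-fold. The PRC2 core sits between 0.09 and 0.27, while PRC1 genes spread from Ring1 at -0.90 to Pcgf6 at 0.80.

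Genes that oppose Polycomb had a median ratio of 0.01 over 17 measured of 19, with 9 above 0. This list held H3K27 demethylases, the H2A deubiquitinase Bap1 with its ASXL partners, and trithorax genes. By these probe sets 1 of the 17 was at least 1.5-fold higher, a share close to the 5.34% of all measured genes. It was Kdm6a, an H3K27 demethylase, at 0.64 on U74Cv2, with 297.8 in Null and 188 in WT. The spread at that level of U74Cv2 was 0.56, and on U74Av2 Kdm6a stood at 0.36. Ash2l, of the H3K4 methyltransferase complexes, stood at -0.13 on U74Av2, while a U74Cv2 probe set read 284.9 in Null and 76.8 in WT, under the floor, and was at least 2.26-fold higher. Asxl2 stood at 0.30, with other probe sets down to -0.63. The chromatin remodelling subunit Smarcb1 stood at -0.27 and Rbbp5, a partner of Ash2l, at -0.33. The median turned to -0.01 with the floor at the 60th percentile.

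Few textbook Polycomb targets were measurable. Outside the Hox clusters 29 of 35 were on the chips and 11 were measured, with 4 ratios above 0, a median of -0.27 and 0 genes at 1.5-fold by their highest-ranking probe set, which 11.7% of all measured genes reached. Cdkn2b, a cell cycle inhibitor next to Cdkn2a, read 125.1 in Null and 181.6 in WT, a ratio of -0.55 in the low-level group, where the spread was 0.35. Cdkn2a, singled out after its values were seen because it is the best known target of Bmi1, read 221.7 in Null and 257.4 in WT, a ratio of -0.22, within that spread. Meis1 stood at -0.47 and Eya1 at 0.24. Sox17 stood at 0.22 on U74Av2, but on U74Cv2 it read 101.5 in Null, under the floor, and 236.4 in WT, a bound of -0.93 in the other direction.

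Of 39 Hox genes 33 were on the chips and 15 were measured, with 5 ratios above 0 and a median of -0.14. Hoxa4 read 308.3 in Null and 640.6 in WT, a ratio of -1.06. It was the only one at least 2-fold different by its highest-ranking probe set, against 3.06% of all measured genes. Hoxd8 stood at -0.31, Hoxc8 at 0.58 and Hoxb4 at 0.67. The ratios of Hoxb3, Hoxb6 and Hoxb7 were bounds. The 3 other Hoxa4 probe sets were below the floor on both arrays.

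Ezh2 is known to be more active in dividing cells, so proliferation genes were set beside the Polycomb genes. Their median was 0.07 over 18 measured of 20. Of these, 11 had a ratio above 0 and none reached 1.5-fold, against 48.5% and 11.7% of all measured genes. Mki67, a marker of cycling cells, stood at 0.35 and the replication factor Mcm3 at 0.24, while the mitotic kinase Aurkb stood at -0.31 and Mcm5 at -0.33.

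Cell type markers differed between the arrays as well, and in bulk RNA fewer cells of a type and less RNA per cell cannot be told apart. Of 12 pan germ cell markers 7 were measured, with 5 above 0 and a median of 0.25. Mael stood at 0.81, Dazl at 0.56 with -0.32 in a dim probe set, Tdrkh at 0.33 and Ddx4 at 0.25 with 0.56 in another probe set. Mov10l1 stood at 0.05 with -0.64 in another, Piwil2 at -0.05 and Tex101 at -0.53. Only 2 of these genes were on U74Av2, where they summed to 7315.6 in Null and 5082.7 in WT, most of it from 1 Dazl probe set with 6333.8 in Null and 4287.3 in WT. Of 24 spermatogonial markers 18 were measured, Zbtb16 itself among them, with a median of 0.03. Of these, 4 differed at least 2-fold, with Sall4, Zbtb16 and Pou5f1 lower and Bcl6b higher in Null, against 3.06% of all measured genes. All 4 were read on U74Cv2, where the spread was wider than on U74Av2, at 0.56, 0.48 and 0.32 in the low, middle and high group. The Pou5f1 ratio is a bound, and other probe sets of Sall4 and Pou5f1 stood above 0. Gfra1 and Kit were above the floor by their highest-ranking probe sets, while Ret and Thy1 were not. Ret and Thy1 were read on U74Av2 only, where Gfra1 also lay below the floor, at 31.4 in Null and 61 in WT. Above the floor, Gfra1 stood at 0.22 on U74Cv2 and at -0.22 on U74Bv2.

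Markers of somatic cells were summed over their U74Av2 probe sets. Sertoli markers had 13 of 18 measured ratios below 0 and summed to 52356.5 in Null and 59128.6 in WT. Of these, 2 were at least 2-fold lower, Rhox5 at -1.04 and Tsx at -1.02, and 0 were 2-fold higher. Among all measured genes 3.06% differed 2-fold in either direction, and 0.908% of the measured probe sets of U74Av2, where Rhox5 and Tsx were read. Leydig markers had 6 of 8 below 0, a median of -0.15 and sums of 9241.6 in Null and 11112.6 in WT. Most of these sums came from Nr5a1, which is counted by several probe sets. Its brightest gave scaled values of 2970.7 in Null and 3864.1 in WT, and the next 1958.1 in Null and 2280.9 in WT. The 2 Leydig markers that differed 2-fold, Hsd17b3 at 1.20 and Thbs2 at 1.06, were higher, against the same 3.06% of all measured genes. Thbs2 was read on U74Cv2, and its U74Av2 probe set was below the floor on both arrays. Macrophage markers had 8 of 9 below 0 and summed to 6985 in Null and 7916.8 in WT. Both measured erythroid markers were below 0, with sums of 2771.4 in Null and 4559.1 in WT. Nearly all of the erythroid sums came from 1 Hba-a1 probe set, with 2680.7 in Null and 4424.1 in WT, and the Alas2 ratio is a bound. Smooth muscle markers had 4 of 6 above 0 and a median of 0.08, while their sums were 8280.5 in Null and 8610.9 in WT. Endothelial markers had 4 of 8 above 0 and summed to 2955.5 in Null and 2798.4 in WT. No value of any marker was 0. Sertoli genes such as Clu, at 14551.7 in Null and 16758 in WT, read clearly above the floor in RNA labelled as spermatogonia. The part of these cell types in the Polycomb ratios was not tested.

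**Figure D4:**
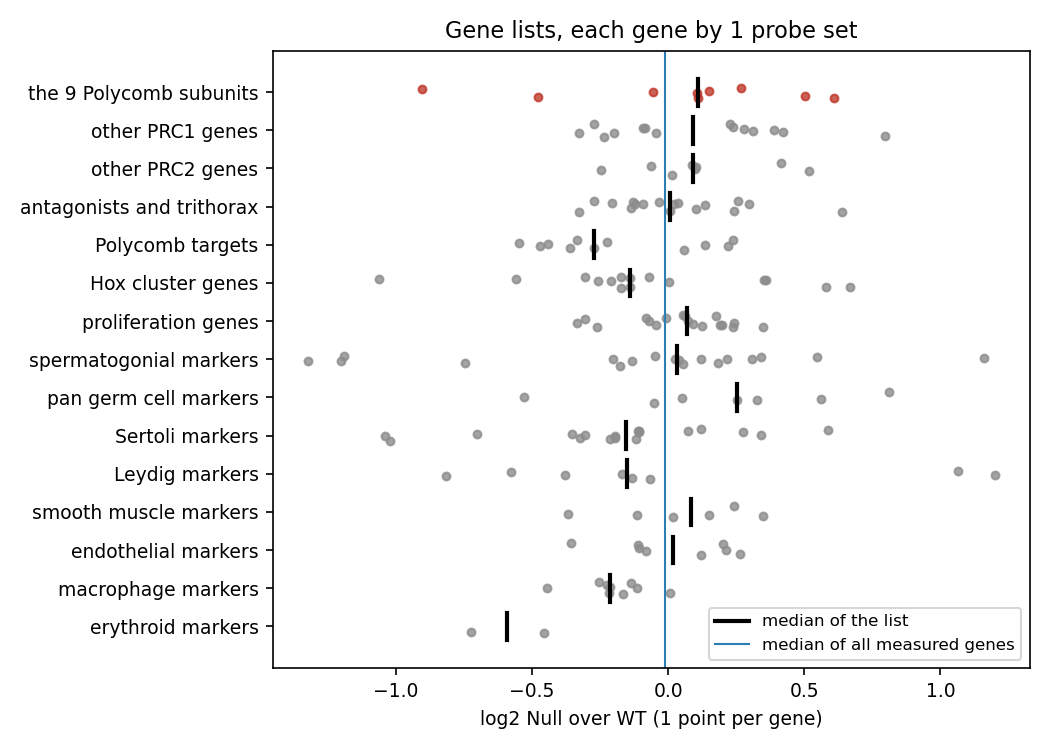
Log2 ratio of Null over WT for each measured gene of the lists, 1 probe set per gene, with bounds drawn at their bound, the median of each list as a black stroke and the median of all measured genes as a blue line. The 9 Polycomb subunits spread from -0.90 to 0.61 around 0.11, and the pan germ cell markers have a median of 0.25.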

How the data were processed

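The deposited values are intensities on a linear scale, 1 per probe set, and none is 0 or negative. Which software and background correction made them is not stated in the labels. Their mean without the lowest and highest 2% was 500.3 on both U74Av2, 500.1 on both U74Bv2 and 500.3 on both U74Cv2 arrays, so the authors' intensities had been scaled array by array. The number of arrays limits the precision.

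Each chip was processed on its own without its 66 control probe sets. Null values were scaled by the median ratio to WT over probe sets at or above the 50th percentile of mean rank, a log2 shift of 0.01, 0.00 and 0.02 on the chips in order. A floor was set at the 40th percentile of both arrays, at 98.3, 165 and 124, and log2 of Null over WT was taken. Intensities in the text are as deposited, and marker sums are scaled. A probe set under the floor on 1 array yields a bound, and on both nothing. Gene names came from GEO's platform annotation, and Entrez identifiers matched a RefSeq table for 10817 of 10833, 10550 of 10581 and 7677 of 7717 probe sets with 1 symbol. In lists each gene is represented by its probe set of highest level percentile.

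All probe sets of the 9 genes are named. Of the other Polycomb genes the 3 highest and 3 lowest ratios of each list above the floor on both arrays were named, of the antagonist, target, Hox and proliferation lists the 2 highest and 2 lowest, and further genes as paralogs, shared core subunits or defining markers, chosen after their values were seen. The members and lists were chosen with earlier results of these data known. The calculation was tested on simulated data. Alternatives were other scalings, floors, thresholds, chips and probe set choices. Calculations ran in Python 3.11.15 with pandas 2.3.3, numpy 2.4.6, statsmodels 0.14.6 (loess), scipy 1.17.1 and matplotlib 3.10.9.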

Additional observations from a re-analysis of the deposited data

How the results depend on the processing

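The count of Polycomb subunits at least 2-fold different was 0 in every setting run. The count at 1.5-fold was 2. It became 1 with the 60th-percentile floor, where Ring1 gave only a bound, and 1 with the mean over probe sets, where Cbx2 fell short. At a 3-fold threshold it was 0, which the 0 at 2-fold fixed in advance. The median of the 9 subunits was 0.12 with the values as deposited, 0.10 after loess and 0.09 after quantile normalization. The choices of chip and suffix and the lower floors could move neither this median nor the counts. All 9 genes are read on U74Av2 by probe sets without a suffix and above the floor. The median was 0.11 with the 60th-percentile floor and with the mean over probe sets. Of 75 combinations of a Polycomb probe set and a setting, 72 moved by less than the spread, 3 moved by more and 0 changed sign. The 3 were Ring1 at the higher floor, at -0.18, and the dim Cbx2 probe set at 1.42 with the 20th-percentile floor and at 1.42 without one. Many of the 75 could not move, or not by more than the spread. The values as deposited differed only by the scaling shift, 0.01 on U74Av2, which is below every spread. The choice of suffix left all of these probe sets as they were. Nor could a changed floor move a probe set above the old and the new floor on both arrays. The dim probe sets of Cbx2 and Rnf2 gave no ratio at the higher floor and are left out there. The median of the pan germ cell markers moved to 0.56 with U74Av2 alone and to 0.56 without U74Cv2. With U74Av2 alone only Dazl and Ddx4 remained of this list, at 0.56 each. Without U74Cv2 the list also kept Mael at 0.81 and Tex101 at -0.53. Of 180 medians under an alternative, 5 changed sign, namely the other PRC1 genes with U74Av2 alone, at -0.09, and with the 20th-percentile floor or none, at -0.05 each, the antagonists with the higher floor, at -0.01, and the spermatogonial markers with the mean over probe sets, at -0.03. No paired analysis was possible because each genotype had 1 array per chip. The precision is limited by signal near the floor, which left 4 of the 15 Polycomb probe sets without a ratio.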

Other observations

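Probe sets of the same gene sometimes gave opposite ratios, a pattern singled out after the values were seen. Asxl2, a partner of the deubiquitinase Bap1, had 4 measured on U74Bv2, at 0.30, -0.13, -0.14 and -0.63, and others there below the floor on both arrays. The zinc finger gene Sall4 stood at -1.32 on U74Cv2 and at 0.27 and 0.63 on the other chips. For these genes a single probe set would have given either direction.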
